A study of Mus musculus with 86 samples.

Results

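Nr3c1, the gene of the glucocorticoid receptor, and 7 of its classic target genes (Fkbp5, Tsc22d3, Klf15, Sgk1, Zbtb16, Dusp1 and Hsd11b1) were followed in 2 hind-limb muscles of mice, the gastrocnemius (GA) and the soleus (SO). These 8 genes were taken by name from a table of 42807 genes, and all 8 passed the filter on low counts in both muscles. The question was which of them remained raised after 10 days of dexamethasone (DEX), a synthetic glucocorticoid that is used to bring about muscle wasting, and which treatments moved them. RNA was sequenced from male C57BL/6N mice, 10 weeks old, with 43 libraries per muscle in 9 groups. Non-treated mice were injected with PBS and all 8 other groups with DEX at 25 mg/kg a day. The DEX group received nothing else but PBS by gavage, as did the non-treated mice. The other 7 groups were gavaged 30 minutes after each injection with an extract or with resveratrol, a plant polyphenol that served as positive control, at 200 mg/kg. The extracts, called JGT, are hot-water extracts of peony root and liquorice root, mixed 2:1 in JGT02, 1:1 in JGT03 and 1:2 in JGT04, and each was given at 100 and at 400 mg/kg. In both muscles the DEX and JGT04 400 groups held 4 mice and every other group 5. Each library of a group is labelled as its own mouse, and the labels do not say whether the GA and SO libraries of 1 number come from the same mouse. Extracts and resveratrol were suspended in carboxymethylcellulose while DEX and non-treated mice received PBS alone, so a treatment and its vehicle cannot be told apart. Muscles were taken 1 day after the last injection or behavioural test. Every mouse that received an extract or resveratrol also received DEX, so no group shows an extract without it.

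The glucocorticoid receptor waits in the cytoplasm in a complex with heat-shock proteins and their helpers. When a glucocorticoid binds, the receptor moves to the nucleus, binds DNA at glucocorticoid response elements and raises or lowers the transcription of nearby genes. Some targets act back on the pathway: Fkbp5 encodes a co-chaperone that lowers the receptor's affinity for hormone, and Hsd11b1 encodes the enzyme that regenerates active glucocorticoid from its inactive form inside the cell. Klf15 and Zbtb16 encode transcription factors, and Klf15 is known in muscle for turning on the breakdown of branched-chain amino acids. Tsc22d3 encodes GILZ, an anti-inflammatory leucine zipper protein. Sgk1 encodes a kinase that promotes ion transport and cell survival. Dusp1 encodes a phosphatase that switches off MAP kinases and is also an immediate early gene of stress. Liquorice contains glycyrrhizin, whose breakdown product inhibits enzymes of the Hsd11b family. Neither enzyme activity nor hormone was measured in the data used here.

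The promoters of Sgk1 and Tsc22d3 are shown because, of the 6 members with a window searched, these 2 have an arm of the glucocorticoid response element in it. Their levels had a Spearman correlation of 0.61 over the 86 libraries, with each muscle centred on its median. Whether the arms bear on this correlation was not tested. The sequences come from RefSeq windows on GRCm38.p6, 250 bases before to 50 bases after an annotated start. Capitals mark AGAACA or its reverse complement TGTTCT, the 6-base arm of the palindromic element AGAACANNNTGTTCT, searched on both strands.
Sgk1, chr10:21993640-21993939, plus strand: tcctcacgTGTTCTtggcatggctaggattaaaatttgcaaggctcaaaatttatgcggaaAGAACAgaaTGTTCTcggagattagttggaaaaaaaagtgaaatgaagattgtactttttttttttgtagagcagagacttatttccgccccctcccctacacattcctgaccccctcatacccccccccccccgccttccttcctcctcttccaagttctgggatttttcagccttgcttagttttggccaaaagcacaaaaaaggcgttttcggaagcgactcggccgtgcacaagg
Tsc22d3, chrX:140600473-140600772, minus strand: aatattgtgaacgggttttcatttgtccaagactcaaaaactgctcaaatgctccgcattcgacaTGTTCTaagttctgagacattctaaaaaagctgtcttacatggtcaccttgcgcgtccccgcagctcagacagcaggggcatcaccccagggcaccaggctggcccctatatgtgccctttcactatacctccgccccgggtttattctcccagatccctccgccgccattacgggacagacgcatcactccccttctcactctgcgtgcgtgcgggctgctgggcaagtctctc
The Sgk1 window holds the whole 15-base element, with its first base at -189 and its last at -175 from the start, and another arm at -242. Only 3 of 32851 promoter windows in the RefSeq table hold the whole element (0.0091%), those of Acnat2, Gm35041 and this start of Sgk1. The Tsc22d3 window holds 1 arm, at -185. Arms are common: 6233 windows hold at least 1 (19%). RefSeq windows of 6 of the 8 members were searched, 13 windows in all, and 4 of the 13 hold an arm. The search among members left out the chromosome that holds Nr3c1. The 2 shown are the ones with the best match of each gene: of 6 Sgk1 windows 3 hold an arm and 1 the whole element, and of 3 Tsc22d3 windows 1 holds an arm. A match is a description of letters in a window and says nothing of whether the receptor binds there.

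On GRCm38 (GENCODE vM21) Fkbp5 spans chr17:28399094-28517527, Tsc22d3 chrX:140539528-140600659, Zbtb16 chr9:48654297-48836222, Dusp1 chr17:26505590-26562128 and Hsd11b1 chr1:193221634-193264075, all on the minus strand. Klf15 spans chr6:90462576-90475238 and Sgk1 chr10:21882184-21999903 on the plus strand. Nr3c1 lies on chromosome 18, minus strand. All are protein-coding. At most 2.06% of a member's 31-base words (Fkbp5) occur in another gene. The exons of Dusp1 overlap Ergic1 on the other strand, and whether reads were counted by strand is not given in the sources used here, so reads of the 2 genes may not be told apart.

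Library totals were 22.3 to 32.1 M counts (GA) and 18.8 to 34.6 M counts (SO). In all, 3 libraries stood apart from their groups and enter every result below unless it says otherwise. In GA JGT02 100 mouse 1 and SO JGT02 100 mouse 5 the embryonic myosin gene Myh3 was at 1240 and 1060 CPM (counts scaled to the size of the library), against at most 25.9 and 122 in the other libraries of the muscle. The summed level of 9 macrophage genes was 2540 and 3010 CPM there, against at most 103 and 382. In both libraries 7 of the 8 members, all but Hsd11b1, lay below every other mouse of the group. The third, labelled SO JGT02 400 mouse 1, held the fast-fibre gene Mss51 at 544 CPM, against at most 12.2 elsewhere in SO, and the slow myosin gene Myh7 at 14.4 CPM, against at least 4180 in the SO libraries that did not stand apart. Nr3c1, Tsc22d3 and Sgk1 were above the rest of its group. Leaving the 3 out lowered the common dispersion, a summary of the spread over all genes, from 0.0379 to 0.00698 (GA) and from 0.0585 to 0.0187 (SO). Values marked "without the 3" leave them out. In SO JGT02 100 mouse 5 Myh7 was also low, at 27.3 CPM, so 2 of 43 SO libraries lacked this defining marker of a slow muscle.

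In listed order the libraries were taken as 3 sets of 32, 28 and 26. The labels do not name these sets, since every title reads Batch1, and what separates them is not known. A break falls inside 2 groups. In SO JGT02 400, Nr3c1 ranged over 90.5 to 101 CPM for the 3 mice before the break and 79.8 to 80.5 for the 2 after it. The mouse at 101 is the library that stands apart, and in SO the set term rests on this group. Dusp1 (54.6 to 69.9 and 71.0 to 77.2 CPM) did not overlap across the break in this group either. Klf15 (23.0 to 25.4 and 25.5) and Zbtb16 (13.7 to 14.9 and 13.6) were apart by a narrow margin. Fkbp5, Tsc22d3, Sgk1 and Hsd11b1 overlapped there. In GA JGT04 100, Fkbp5 ranged over 40.1 to 50.8 CPM before and 33.1 to 39.7 after the break. Other members overlapped across that break, among them Nr3c1 (105 to 115 and 113 to 121 CPM) and Tsc22d3 (123 to 160 and 137 to 143). Within each muscle, the DEX mice are in the set of the non-treated mice. GA JGT04 400 and resveratrol, and SO JGT03, JGT04 and resveratrol, lie in a later set than the DEX and non-treated mice they are compared with. For them the treatment and the set can be separated only through those 2 split groups, and for the main calls in these groups the value with a set term in the fit is given.

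In non-treated mice Tsc22d3, Sgk1 and Fkbp5 were lower in the soleus than in the gastrocnemius. Per kilobase of exon the order in GA was Tsc22d3 (26.8 ± 3.21 CPM per kb, SD, n = 5), Sgk1 (19.6 ± 4.32), Nr3c1 (13.2 ± 0.324), Dusp1 (12.2 ± 2.59), Klf15 (8.6 ± 0.506), Fkbp5 (7.03 ± 1.55), Zbtb16 (6.11 ± 1.3) and Hsd11b1 (1.37 ± 0.212). Over the 5 mice, neighbours in that order overlapped except Sgk1 with Nr3c1 and Zbtb16 with Hsd11b1. In SO it was Dusp1 (15.7 ± 2.08), Nr3c1 (11.9 ± 1.06), Tsc22d3 (11.9 ± 1.34), Klf15 (11.1 ± 0.518), Sgk1 (10.3 ± 2.26), Zbtb16 (4.65 ± 0.396), Fkbp5 (4.51 ± 0.704) and Hsd11b1 (1.16 ± 0.0934). There Dusp1 overlapped Tsc22d3 but not Nr3c1, the genes from Nr3c1 to Sgk1 overlapped one another, and so did Zbtb16 and Fkbp5.

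Against GA, SO held 2.34-fold less Tsc22d3 (log2 -1.23 ± 0.16, SE, adjusted p = 4.78e-10, edgeR), 1.99-fold less Sgk1 (-0.99 ± 0.21, adjusted p = 7.06e-05) and 1.63-fold less Fkbp5 (-0.70 ± 0.15, adjusted p = 5.17e-05). On the scale of both muscles together Tsc22d3 was between 104 and 140 CPM in GA and between 46.7 and 60.6 in SO, without overlap. These were 3 of the 8 members, where 45.8% of all genes tested differed between the muscles. With the 3 libraries left out 6 of 8 differed (58.1% of genes): Nr3c1 (-0.20) and Zbtb16 (-0.45) were also lower in SO and Klf15 (0.32) higher. The muscles lie in different sets, and with a set term only Tsc22d3 passed (-1.27, adjusted p = 9.05e-05).

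**Figure D1:**
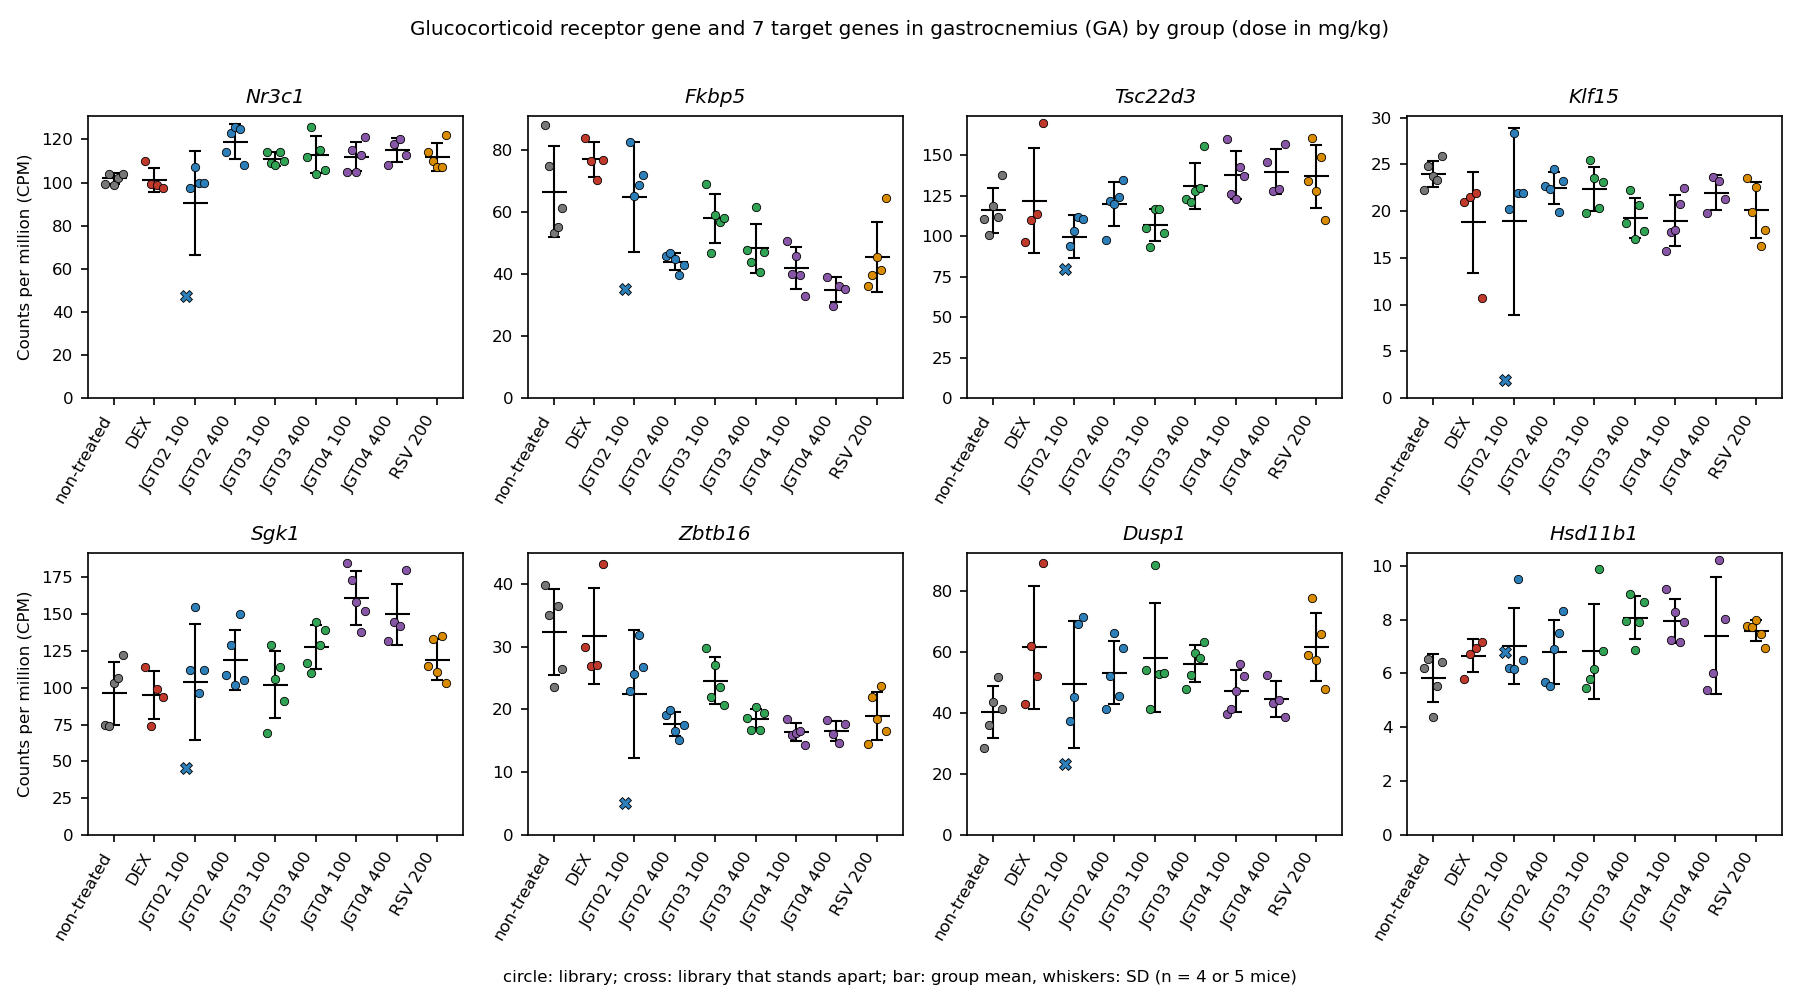
Level of the 8 genes in the gastrocnemius, in CPM on linear axes from 0, with 1 point per mouse (a cross for the library that stands apart), the group mean and its SD, in 9 groups. Fkbp5 and Zbtb16 are lower in most treated groups than in DEX mice (for Zbtb16, 14.4 to 18.5 CPM in JGT04 100 against 26.9 to 43.1), while Klf15 of 1 JGT02 100 mouse stands at 1.95 CPM.

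**Figure D2:**
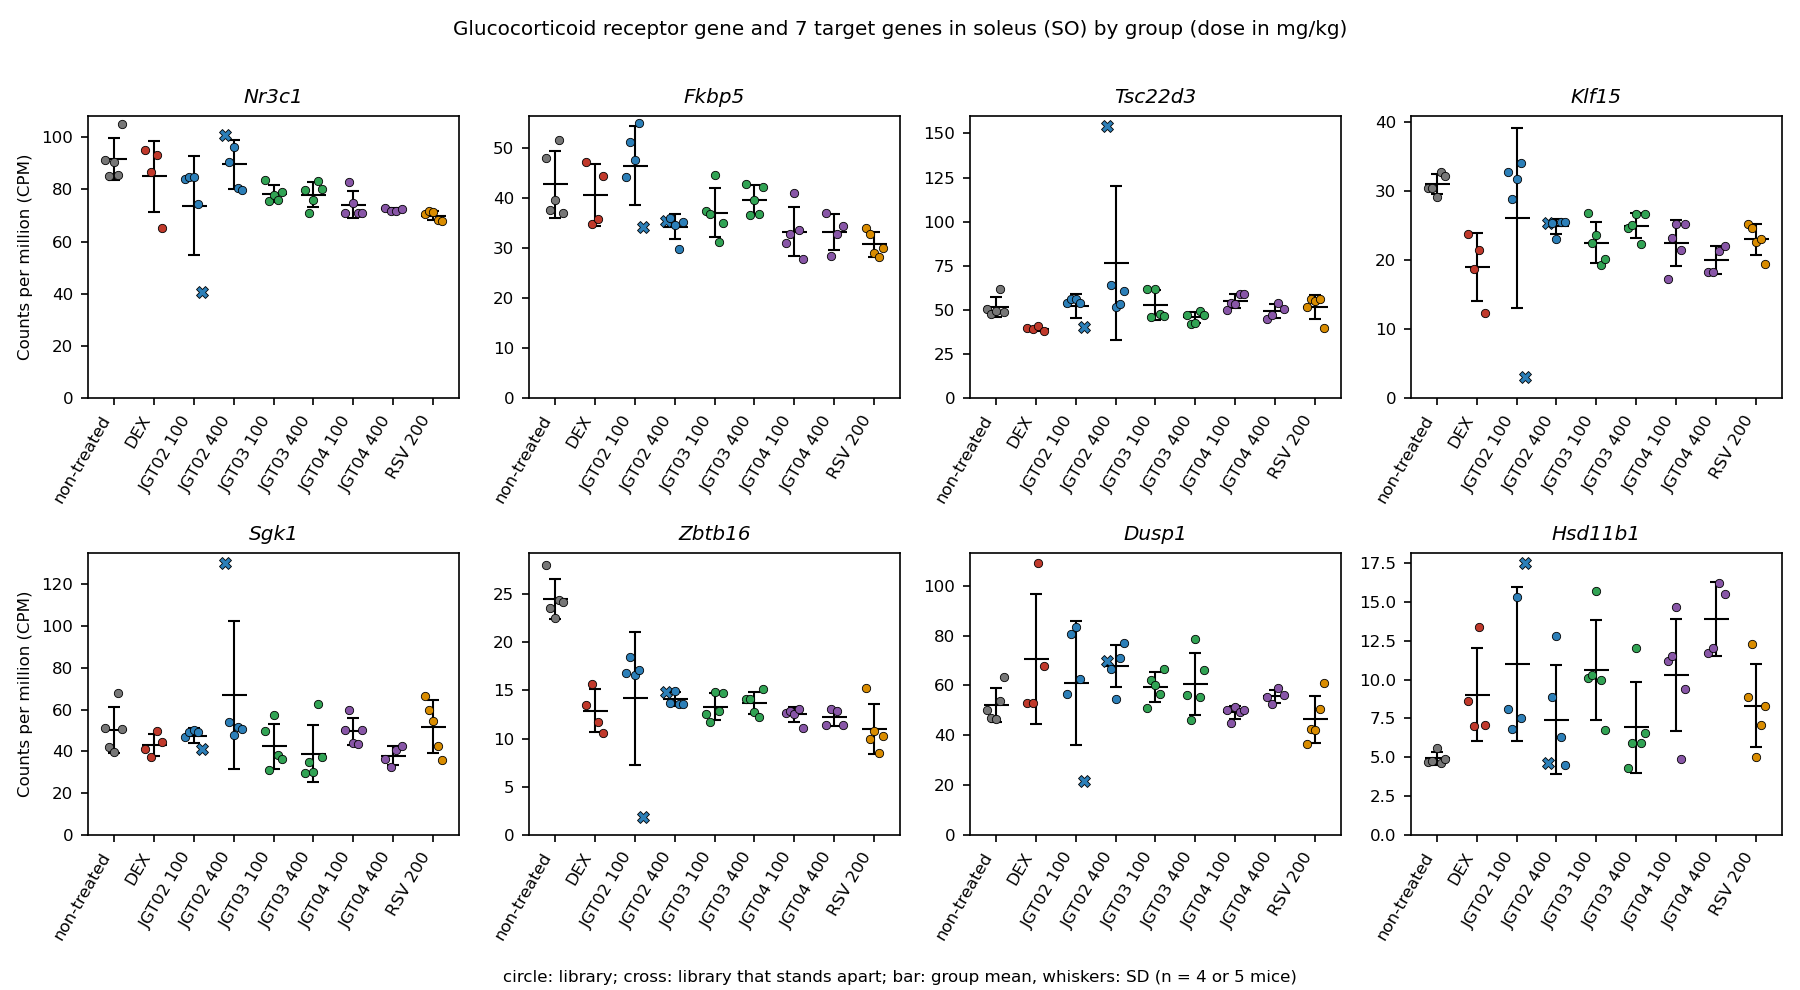
Level of the 8 genes in the soleus, drawn as for the gastrocnemius, with crosses for the libraries that stand apart. All 38 libraries of injected mice lie below the 5 non-treated ones for Zbtb16, and 1 JGT02 400 mouse stands at 154 CPM for Tsc22d3 and 130 for Sgk1.

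After 10 days of DEX alone no member was raised in the gastrocnemius by the test, and in the soleus Hsd11b1 rose and Zbtb16 fell. In GA 0 of 8 members passed for DEX against non-treated, where 8.38% of genes did. Only Dusp1 had an unadjusted p under 0.05 there, and DESeq2 also called 0 of 8. In SO 2 of 8 passed, where 20.8% of genes did. Split by direction, 4.31% of genes were higher and 4.07% lower in GA, and 11.3% higher and 9.47% lower in SO. Without the 3 libraries 2 members passed in GA (Dusp1 up, Klf15 down) and 5 in SO (Hsd11b1 and Dusp1 up, Zbtb16, Klf15 and Tsc22d3 down), where 26.4% and 43.2% of genes did. The median change of the 8 was 0.04 in GA and -0.16 in SO on the log2 scale. Over all genes it was -0.01 and 0.05.

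Taken over all 8 injected groups, where 38 mice stand against 5, 3 members of 8 passed in each muscle. In GA Hsd11b1 rose and Fkbp5 and Zbtb16 fell, where 21.2% of genes passed. In SO Hsd11b1 rose and Nr3c1 and Zbtb16 fell, where 17.8% of genes passed. Among all genes 10.3% were higher and 10.9% lower in GA, and 9.05% higher and 8.78% lower in SO. Hsd11b1 was thus the single member that was raised in both muscles by this contrast. Leaving out the 3 libraries, 6 members passed in GA (42.7% of genes), with Nr3c1, Sgk1 and Dusp1 added upward, and 5 in SO (34.4% of genes), with Fkbp5 and Klf15 added downward. With a set term (15.6% of genes in GA and 4.02% in SO) only Zbtb16 passed in GA (-0.63, adjusted p = 0.0238) and only Hsd11b1 in SO (1.41, adjusted p = 0.0256).

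**Figure D3:**
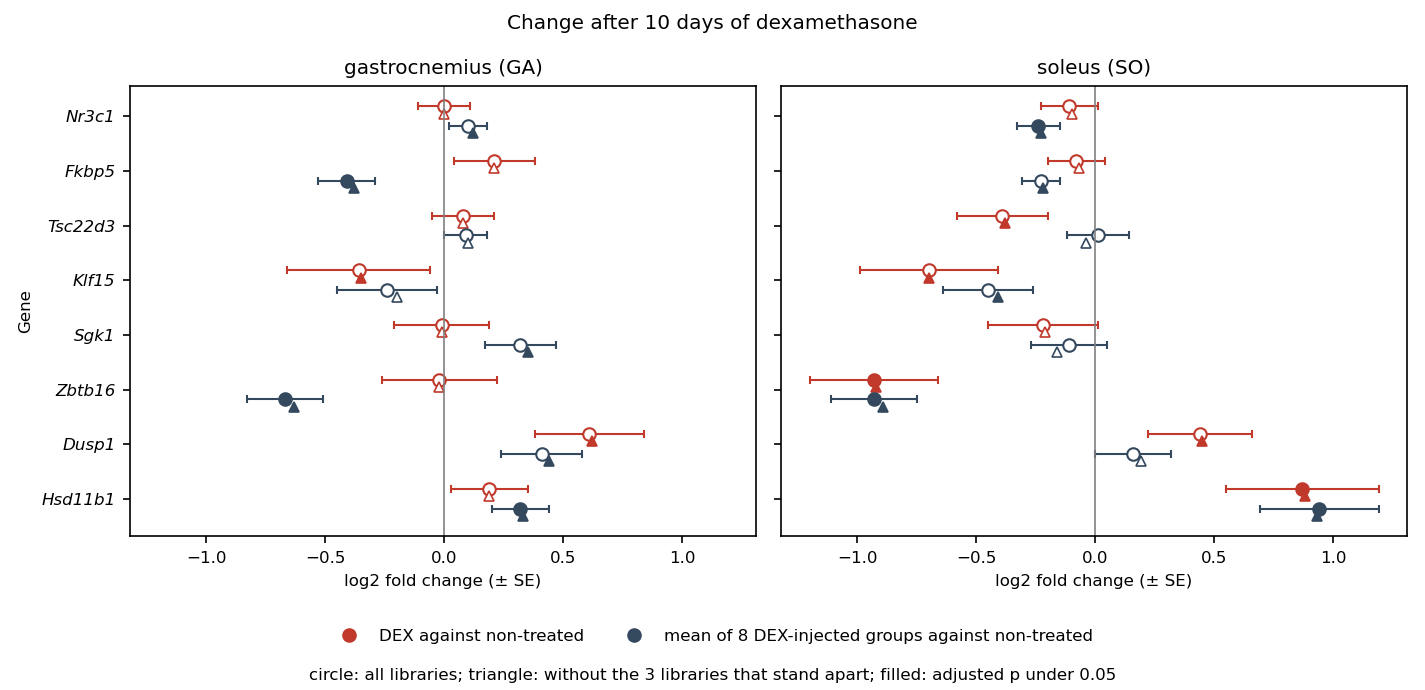
Log2 fold change ± SE of each gene against non-treated mice, for DEX alone and for the mean of the 8 injected groups, with all libraries (circles, with the SE drawn) and without the 3 that stand apart (triangles), filled where the adjusted p is under 0.05. Zbtb16 and Hsd11b1 lie farthest from 0 in the soleus (-0.93 and 0.94 for the mean of 8), and removing the 3 libraries changes which symbols are filled more than where they lie.

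Nr3c1, the receptor gene itself, did not pass for DEX alone in either muscle, and over all injected mice it lay lower in SO and slightly higher in GA. Nr3c1 in GA was at 99.4, 104, 98.9, 102 and 104 CPM in non-treated mice and at 110, 99.3, 98.7 and 97.5 in DEX mice. The groups overlap, and the 95% interval of the log2 difference ran from -0.23 to 0.23. Of the 38 injected GA libraries 30 lay above all 5 non-treated ones, yet the mean change of the 8 groups (0.10 ± 0.08, adjusted p = 0.445) passed only without the 3 libraries (0.12 ± 0.04, adjusted p = 0.00617). Nr3c1 then passed upward in 6 of the 8 GA groups taken singly and downward in 5 of the 8 SO groups. Of all pairs of gene and group 30.9% passed in GA and 24.7% in SO in that setting. With all libraries Nr3c1 passed in 0 and 2 groups, where 14.1% and 12.9% of pairs did. The JGT03, JGT04 and resveratrol groups of SO lie in a later set than the non-treated mice. In SO Nr3c1 was at 91.4, 85.3, 90.3, 85.6 and 105 CPM in non-treated mice and at 94.9, 86.7, 93.1 and 65.3 in DEX mice. These groups overlap, and the difference (-0.11 ± 0.12, adjusted p = 0.557) did not pass. Over the 8 injected groups Nr3c1 in SO fell by 0.24 ± 0.09 on the log2 scale (adjusted p = 0.0436), with 32 of 38 injected libraries below all 5 non-treated ones and 6 within their range. That call was lost when any of 9 single libraries was left out, among them 4 of the 5 non-treated ones (adjusted p up to 0.177), and with a set term the change was -0.07 (adjusted p = 0.856).

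Hsd11b1, the enzyme that regenerates active glucocorticoid, had the lowest level of the 8 genes in non-treated mice of both muscles, and it rose over the injected groups in both. In SO it was at 4.7, 4.77, 5.61, 4.64 and 4.91 CPM in non-treated mice and at 8.59, 7.04, 13.4 and 7.08 in DEX mice. All 4 DEX mice lay above all 5 non-treated ones, as they did for 12.3% of genes. The rise was 1.83-fold (log2 0.87 ± 0.32), with an adjusted p that rounds to 0.05 from below. The call was lost in 8 of 9 fits that left out 1 library of the 2 groups (adjusted p up to 0.205, log2 change 0.63 to 0.98). Over the 8 injected groups the rise in SO was 1.92-fold (0.94 ± 0.25, adjusted p = 0.00659), with 33 of 38 injected libraries above all non-treated ones, and it passed in all 43 fits that left out 1 library. It was largest in JGT04 400, at 11.7, 12, 16.2 and 15.5 CPM (1.49 ± 0.32 against non-treated, adjusted p = 0.00104, and 2.19, adjusted p = 0.022, with a set term).

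In GA Hsd11b1 was at 6.2, 6.55, 4.38, 5.52 and 6.44 CPM in non-treated mice and at 5.79, 6.72, 6.95 and 7.18 in DEX mice, which overlap (0.19 ± 0.16, adjusted p = 0.546). Over the 8 injected groups it was 1.25-fold higher (0.32 ± 0.12, adjusted p = 0.0458), with 27 of 38 libraries above the non-treated range. That call held in 29 of 43 fits without 1 library and was lost in the other 14, among them those without non-treated mouse 1, 3, 4 or 5 (adjusted p up to 0.213). Groups that passed singly were JGT03 400 (0.47 ± 0.15, adjusted p = 0.0329) and JGT04 100 (0.45 ± 0.15, adjusted p = 0.0443, and 0.0712 with a set term).

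Adipocyte genes rose in the same comparisons. Hsd11b1 is known to be abundant in fat as well as in liver, and in bulk tissue more cells of a type and more RNA per cell cannot be told apart. Of 12 adipocyte markers 9 rose in GA and 9 in SO over the 8 injected groups, where 10.3% and 9.05% of all genes rose. The adipokine gene Adipoq was between 5.39 and 13.6 CPM in non-treated and between 23.6 and 34.2 in DEX mice of GA, and between 1.91 and 14.2 and between 21.1 and 99.8 in SO. Cidec, a lipid-droplet gene, rose by 2.08 ± 0.24 in GA and 2.93 ± 0.55 in SO on the log2 scale. Car3, which muscle fibres also express, was the 1 marker that fell in GA (-0.49 ± 0.10). It is part of the summed level of the list, which was between 2580 and 3030 CPM in non-treated and between 1760 and 2210 in DEX mice of GA, and between 3220 and 3690 and between 1940 and 3700 in SO. SO JGT04 400, the group with the highest Hsd11b1, also had the highest median of Adipoq (108 CPM, from 75.9 to 166) and of the summed list (4490 CPM, from 4020 to 4850). No gene of the list was at 0 in every library. The part of these cells in the rise of Hsd11b1 was not tested.

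Zbtb16, the zinc-finger transcription factor, was the member with the most pronounced fall. In SO it was at 28, 23.6, 22.5, 24.4 and 24.2 CPM in non-treated mice and at 13.5, 15.7, 11.7 and 10.6 in DEX mice. The DEX mice lay below every non-treated mouse, as they did for 13.8% of genes, and the fall was 1.91-fold (log2 -0.93 ± 0.27, adjusted p = 0.015). Over all injected mice it ran from 1.87 to 18.5 CPM with a median of 13, so all 38 lay below the lowest non-treated mouse at 22.5, which 0.547% of genes did. The fall over the 8 groups was 1.9-fold (-0.93 ± 0.18, adjusted p = 0.000302) and passed in all 43 fits without 1 library. With a set term it was -0.86 (adjusted p = 0.117). The call for DEX alone was lost without DEX mouse 4 (adjusted p = 0.0565).

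In GA Zbtb16 followed another pattern. Non-treated mice were at 39.8, 35, 23.6, 36.5 and 26.5 CPM and DEX mice at 30, 26.9, 27 and 43.1, so no difference was detected for DEX alone (-0.02, 95% interval -0.51 to 0.47). Over the 8 injected groups Zbtb16 fell 1.59-fold (-0.67 ± 0.16, adjusted p = 0.00236), in all 43 fits without 1 library, and the groups in which it was low were treated ones. JGT04 100 mice were at 18.5, 16, 16.2, 16.6 and 14.4 CPM (-0.98 ± 0.23 against non-treated, adjusted p = 0.003). Whether DEX alone acted differently in the muscles was tested as an interaction, in which 0 of 8 members and 8.36% of genes passed (2 of 8 at an unadjusted p under 0.05, 0 of 8 by DESeq2). For Zbtb16 the SO change was lower by 0.92 ± 0.38 (adjusted p = 0.11), which did not pass with all libraries and passed without the 3 (-0.96, adjusted p = 3.01e-05), as did 33.6% of genes, and in a fit of the compared groups alone (adjusted p = 0.00648).

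Fkbp5, the co-chaperone of the feedback loop and often the first gene read as a sign of glucocorticoid action, was not raised in either muscle. In GA it was at 88.2, 74.9, 53.4, 55.2 and 61.3 CPM in non-treated mice and at 84, 76.4, 70.5 and 76.9 in DEX mice. The DEX mean was 1.16-fold higher within the spread of non-treated mice (0.21 ± 0.17, adjusted p = 0.537, 95% interval -0.14 to 0.55). Over the 8 injected groups Fkbp5 in GA fell 1.32-fold (-0.41 ± 0.12, adjusted p = 0.0103), with no injected library above the non-treated range and 24 of 38 below it. The call was lost without non-treated mouse 1 or mouse 2, the 2 highest of that group (adjusted p up to 0.123), and with a set term (-0.31, adjusted p = 0.131). In SO Fkbp5 was at 48, 37.5, 39.6, 51.6 and 37 CPM in non-treated and at 47.2, 34.8, 35.7 and 44.4 in DEX mice (-0.08 ± 0.12, adjusted p = 0.677), and the mean of the 8 groups was -0.23 ± 0.08 (adjusted p = 0.0573).

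Klf15, the regulator of amino-acid breakdown, was lower in DEX mice of both muscles, by an amount that did not pass with all libraries. In SO it was at 30.4, 30.5, 29.2, 32.8 and 32.2 CPM in non-treated and at 23.7, 18.7, 21.4 and 12.3 in DEX mice. The DEX mice lay below all non-treated ones, as they did for 13.8% of genes, and the change did not pass (-0.70 ± 0.29, adjusted p = 0.0742). Without the 3 the change was the same and its error smaller (-0.70 ± 0.12, adjusted p = 1.38e-05), and it also passed in a fit of the 2 groups alone (adjusted p = 0.00857). Of the 38 injected SO libraries 35 lay below all non-treated ones, and the other 3 were JGT02 100 mice. In that group 4 mice were at 28.9 to 34.1 CPM and mouse 5, which stood apart, at 3.11. In GA non-treated mice were at 22.3, 24.8, 23.8, 23.3 and 25.9 CPM and DEX mice at 21, 21.5, 21.9 and 10.7. They did not overlap, as 8.85% of genes did in this direction, and the change of -0.36 ± 0.30 did not pass (adjusted p = 0.552). When the 3 libraries were left out it did (-0.35 ± 0.13, adjusted p = 0.0399). Without DEX mouse 4, at 10.7 CPM, the change with all other libraries was -0.16.

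Tsc22d3, the gene of GILZ, was lower in DEX mice of SO without overlap, as 13.8% of genes were, and no difference was detected in GA. In SO it was at 50.3, 47.8, 49.4, 62 and 49.1 CPM in non-treated and at 39.9, 39.2, 40.7 and 37.9 in DEX mice. The groups did not overlap, yet the change (-0.39 ± 0.19, adjusted p = 0.129) did not pass. It passed without the 3 libraries (-0.38 ± 0.09, adjusted p = 0.00122) and in a fit of the DEX and non-treated groups alone (adjusted p = 0.00826). Cell markers moved with the SO DEX group: for DEX against non-treated all 9 Schwann and 5 of 11 endothelial genes rose. The share of all genes that rose there was 11.3%. The summed level of the endothelial list was 595 to 789 CPM in DEX and 445 to 559 in non-treated mice. For the Schwann list it was 104 to 870 against 118 to 205, and for the macrophage list 45.3 to 382 against 36.7 to 85.2. No gene of these lists was at 0 in every library. Their part in the SO values of the members in DEX mice was not tested. In GA non-treated mice were at 111, 101, 119, 112 and 138 CPM and DEX mice at 96.7, 110, 114 and 170 (0.08 ± 0.13, adjusted p = 0.816). GA DEX mouse 4 was the highest of its group for Tsc22d3, Zbtb16, Dusp1 and Hsd11b1 and the lowest for Klf15 and Nr3c1. The difference between the muscles (-0.49 ± 0.23, adjusted p = 0.175) passed without the 3 (-0.52, adjusted p = 0.00706) and, at an adjusted p that rounds to 0.05, in a fit of the compared groups alone.

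Sgk1, the kinase gene, did not change with DEX alone by the test. In GA it was at 74.7, 74.1, 103, 107 and 122 CPM in non-treated and at 114, 74.3, 99.2 and 93.9 in DEX mice (-0.01, 95% interval -0.42 to 0.39). In SO it was at 51.3, 41.9, 39.9, 67.9 and 50.9 in non-treated and at 41, 37.2, 49.7 and 44.5 in DEX mice (-0.22, interval -0.70 to 0.25). Dusp1, the MAP kinase phosphatase, had the largest point estimate of the 8 for DEX in GA. Its non-treated mice were at 28.7, 36.1, 43.5, 51.7 and 41.3 CPM and its DEX mice at 43, 62, 52.1 and 89.4, which overlap (0.61 ± 0.23, adjusted p = 0.0944). In SO Dusp1 was at 50.2, 46.8, 46.5, 53.7 and 63.3 in non-treated and at 53, 52.9, 109 and 67.9 in DEX mice (0.44 ± 0.22, adjusted p = 0.145). Both passed without the 3 libraries (0.62 ± 0.19, adjusted p = 0.0158 in GA, and 0.45 ± 0.16, adjusted p = 0.0221 in SO), and single left-out libraries moved the SO change between 0.17 and 0.56.

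Each of the 8 injected groups was also set against non-treated mice, 64 pairs of gene and group per muscle that share the non-treated libraries. In GA 13 pairs passed, 4 upward (Sgk1 in JGT04 100 and 400, Hsd11b1 in JGT03 400 and JGT04 100) and 9 downward (Fkbp5 in 4 groups, Zbtb16 in 5), where 14.1% of all such pairs of genes and groups did (7.67% higher, 6.47% lower). In SO 17 passed, 5 upward, all of Hsd11b1, and 12 downward (Zbtb16 in 7 groups, Fkbp5 in 3, Nr3c1 in 2), where 12.9% did (7.37% higher, 5.48% lower). Without the 3 libraries 29 passed in GA and 30 in SO, where 30.9% and 24.7% of pairs did. With a set term 7 and 6 passed. That fit also called fewer of all genes: for the mean of the 8 groups 15.6% in GA, against 21.2% without the term, and 4.02% in SO, against 17.8%.

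Against DEX alone, Fkbp5 was lower in 5 treatments, Zbtb16 in both doses of JGT04 and Sgk1 higher in JGT04 100 in the gastrocnemius, and of these 8 calls only Fkbp5 in JGT02 400 was kept with a set term. JGT02 400 and JGT03 400 lie in the set of the DEX mice, so for them the set term does not test the contrast. The calls are 8 of 56 pairs of gene and treatment, 1 upward and 7 downward, where 2.36% of all pairs passed (1.69% higher, 0.669% lower). By treatment, the share of genes that passed was 10.2% for JGT02 100, 0.808% for JGT02 400, 0.0207% for JGT03 100, 0.677% for JGT03 400, 1.38% for JGT04 100, 2.04% for JGT04 400 and 1.37% for resveratrol. Without the 3 libraries 14 pairs passed (6.36% of all). The contrasts share the 4 DEX libraries, so they are not independent of each other. Tested once per gene for any difference among the 8 injected groups, Fkbp5 (adjusted p = 0.000103), Tsc22d3 (0.0182), Zbtb16 (0.0325) and Sgk1 (0.0334) passed, where 13.2% of genes did. Nr3c1 joined them without the 3 (adjusted p = 0.00773, 14.6% of genes), and with a set term Fkbp5 alone passed this test (adjusted p = 0.00672).

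Fkbp5 in GA stood at 70.5 to 84 CPM in DEX mice and lay below all of them in 6 of the 7 treatments. It was at 45.8, 46.8, 44.9, 39.7 and 42.9 CPM in JGT02 400, 0.57 times the DEX level (-0.81 ± 0.17, adjusted p = 0.012). It was lowest in JGT04 400, at 39.1, 29.6, 36.1 and 35.2 CPM, 0.45 times DEX (-1.14 ± 0.18, adjusted p = 0.000424). In JGT04 100 it was at 50.8, 40.1, 45.9, 39.7 and 33.1 CPM (-0.88 ± 0.17, adjusted p = 0.003, and -0.76, adjusted p = 0.0605, with a set term). The highest of these 14 mice, at 50.8 CPM, was well below the lowest DEX mouse at 70.5. With resveratrol Fkbp5 was at 36.1, 39.6, 45.5, 41.3 and 64.6 CPM (-0.76 ± 0.17, adjusted p = 0.0128, lost without mouse 1 at 0.0564). In JGT03 400 it was at 47.9, 44, 61.8, 40.7 and 47 CPM (-0.67 ± 0.17, adjusted p = 0.0499), a call kept in 1 of 9 fits without 1 library and lost with a set term (adjusted p = 0.0505). In each of these groups 1 mouse stood above 60 CPM. JGT03 100, at 46.7 to 69.1 CPM, did not pass (-0.41, adjusted p = 0.798), nor did JGT02 100 (-0.25, adjusted p = 0.333). In JGT02 100 mice 2 to 5 were at 65.3 to 82.8 CPM, a range that overlaps the DEX values and reaches below them. Of all genes 3.46% lay below DEX without overlap in JGT02 400, 2.15% in JGT03 100, 4.42% in JGT03 400, 4.67% in JGT04 100, 7.15% in JGT04 400 and 4.9% with resveratrol. JGT02 400 and JGT03 400 share a set with DEX, so the set term does not test their falls. For JGT02 400 the value with that term was -0.81 (adjusted p = 0.0117). With a set term neither JGT04 400 nor resveratrol passed (-0.81, adjusted p = 0.842 and -0.43, adjusted p = 1.0).

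Zbtb16 in GA was at 26.9 to 43.1 CPM in DEX mice and below all of them in 5 treatments: JGT02 400, JGT03 400, both doses of JGT04 and resveratrol. JGT04 100 (-0.96 ± 0.24, adjusted p = 0.0355) and JGT04 400 (-0.93 ± 0.26, adjusted p = 0.0484) passed, the first in 2 of 9 and the second in 0 of 8 fits that left out 1 library of the pair of groups. With a set term neither did (-0.91, adjusted p = 0.17 and -0.81, adjusted p = 1.0). With the 3 libraries left out all 5 passed, the largest adjusted p being 0.00046 for resveratrol. JGT02 400 mice were at 19.1, 19.9, 16.6, 15.2 and 17.5 CPM (-0.85 ± 0.24, adjusted p = 0.1, and 0.000136 without the 3). Fkbp5 and Zbtb16 were the pair of members with the highest rank correlation over the 86 libraries (0.73, 0.82 within GA and 0.56 within SO).

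Sgk1 in GA rose against DEX in JGT04 100, the 1 treatment of 7 in which it passed, and that call was lost with a set term (0.85, adjusted p = 0.071). This group is split by a set break, with mice at 158 to 185 CPM before it and at 138 to 152 after it. JGT04 100 mice were at 185, 173, 158, 138 and 152 CPM, all above the DEX mice at 74.3 to 114, 1.69 times the DEX level (0.76 ± 0.20, adjusted p = 0.0471). The call was lost in each of the 9 fits without 1 library of the 2 groups and was kept without the 3 libraries that stand apart (adjusted p = 0.00116). JGT04 400, at 132, 145, 142 and 180 CPM, was also above every DEX mouse (0.65 ± 0.21, adjusted p = 0.109, and 0.00561 without the 3, with 0.90 and adjusted p = 0.892 for a set term). JGT03 400 was at 110 to 145 CPM and overlapped DEX. Of all genes 4.77% lay above DEX without overlap in JGT04 100 and 7.06% in JGT04 400.

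In the soleus 2 of 56 pairs passed, where 9.09% of all pairs did (4.06% higher, 5.03% lower): Tsc22d3 rose in JGT02 400 and Fkbp5 fell with resveratrol. Tsc22d3 in JGT02 400 was at 154, 64.3, 51.4, 53.3 and 60.5 CPM against 37.9 to 40.7 in DEX mice (0.96 ± 0.19, adjusted p = 0.000874). By treatment, in the order used for GA, 8.82%, 17.1%, 8.49%, 3.06%, 8.95%, 4.58% and 12.7% of genes passed. The mouse at 154 is the library that carries fast-fibre transcripts, and without the 3 libraries the rise was 0.52 (adjusted p = 0.00016). Tsc22d3 lay above all DEX mice in 5 treatments (JGT02 400 and both doses of JGT03 and JGT04), as did 9.2% of genes in JGT02 400, 8.01% and 6.54% in JGT03 100 and 400, and 8.22% and 7.97% in JGT04 100 and 400. The endothelial sum, 595 to 789 CPM in the DEX mice, was 334 to 567 CPM in these 5 groups, and the Schwann sum had a median of 461 CPM in DEX mice and of 148 to 171 in these groups. The part of these cells in the Tsc22d3 difference was not tested. With a set term JGT02 400 passed (1.19, adjusted p = 0.000216), while the JGT03, JGT04 and resveratrol groups were at 0.88 to 1.14 and did not pass (adjusted p from 0.142 to 0.468). In SO the set term rests on the split JGT02 400 group, at 51.4 to 154 CPM before the break and 53.3 to 60.5 after it. The mouse at 154 thus enters all of these set-term values. Without the 3 it passed in 6 of 7 treatments, all but JGT03 400, and those groups stood at 40.0 to 64.3 CPM, over the range of non-treated mice at 47.8 to 62 CPM. Fkbp5 with resveratrol was at 34, 32.7, 29, 28.1 and 30 CPM against 34.8 to 47.2 (-0.40 ± 0.12, adjusted p = 0.0275). That call held in 4 of 9 fits without 1 library, and with a set term the change was -0.28 (adjusted p = 0.769). Fkbp5 with resveratrol and Dusp1 in JGT04 100 were the members below DEX without overlap in SO, as 9.05% and 7.87% of genes were.

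Leaving out the 3 libraries, 17 of 56 pairs passed in SO, where 30.5% of all pairs did. Beside Tsc22d3 they were Klf15 upward in JGT02 100, JGT02 400 and JGT03 400, Zbtb16 upward in JGT02 100, and Fkbp5, Nr3c1 and Dusp1 downward in some of the JGT04 and resveratrol groups. Klf15 in JGT02 100 was at 32.7, 28.9, 31.7, 34.1 and 3.11 CPM. The first 4 mice overlapped non-treated mice (29.2 to 32.8), and the contrast with DEX was 0.45 ± 0.29 (adjusted p = 0.345) with mouse 5 and 0.74 (adjusted p = 2.51e-05) without the 3 libraries. For any difference among the 8 injected groups Fkbp5 (adjusted p = 0.00237), Tsc22d3 (0.00581) and Sgk1 (0.0494) passed in SO, where 31.6% of genes did. Sgk1 was lost without the 3 (adjusted p = 0.131), when 6 members and 50.1% of genes passed. Only Tsc22d3 passed with a set term (adjusted p = 0.00654), which rests on the JGT02 400 group with its mouse at 154 CPM for Tsc22d3.

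**Figure D4:**
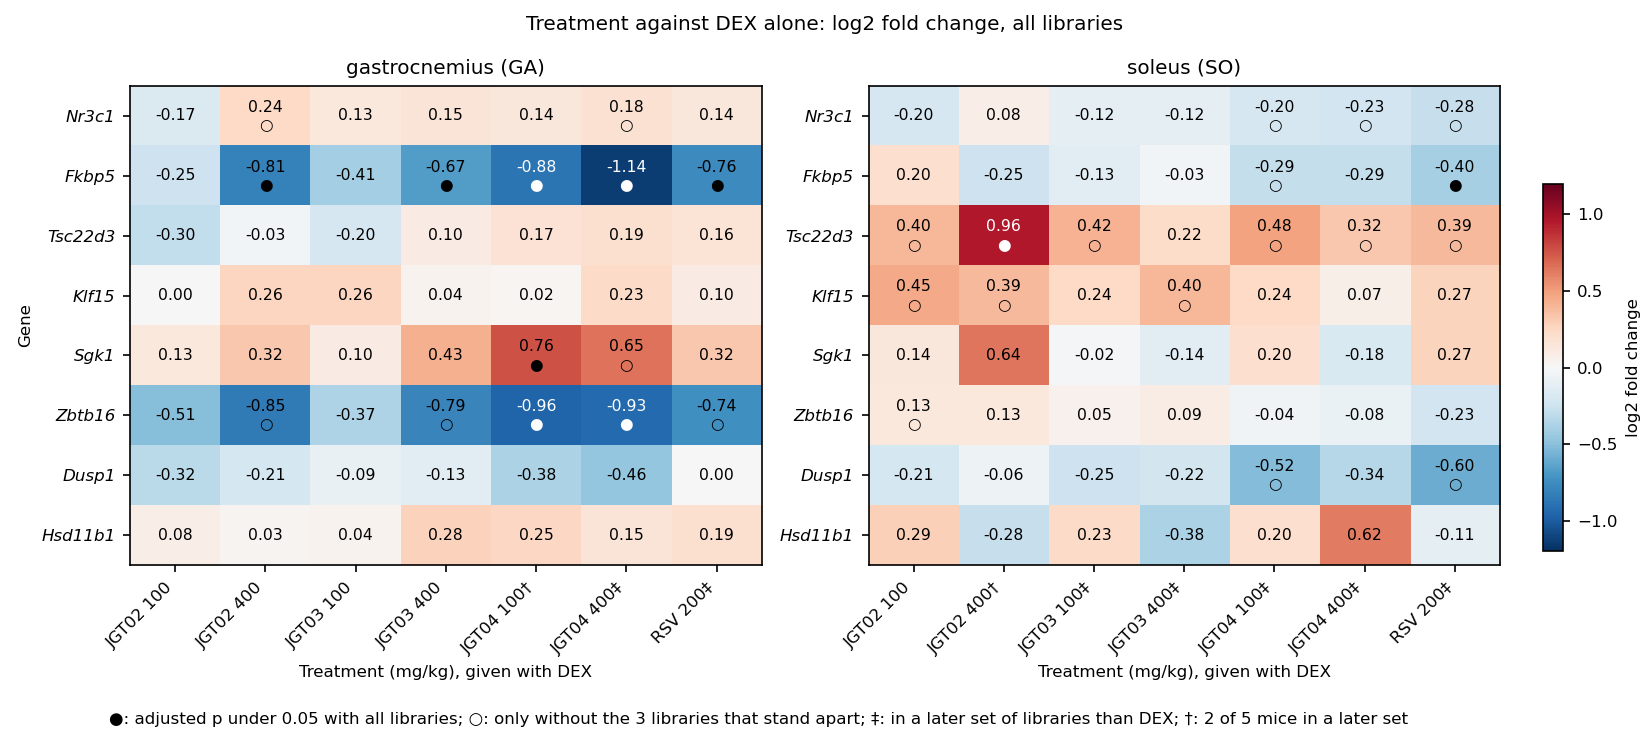
Log2 fold change of each gene in each treatment against DEX alone, in the gastrocnemius (left) and the soleus (right), with red for higher and blue for lower. Filled circles mark an adjusted p under 0.05 with all libraries and open circles one that passes only without the 3 libraries, and daggers mark groups wholly or partly in a later set than DEX. Fkbp5 is blue across GA (down to -1.14 in JGT04 400) and Tsc22d3 is red across SO (up to 0.96 in JGT02 400).

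Doses and extracts were compared at 9 matched contrasts, 72 pairs of gene and contrast per muscle. In GA 6 pairs passed, where 4.98% of all pairs did (7 and 1.18% without the 3 libraries). Fkbp5 was lower at 400 than at 100 mg/kg of JGT02 (-0.56 ± 0.16, adjusted p = 0.0176) and lower with JGT04, the mixture with more liquorice, than with JGT02 at 100 mg/kg (-0.63 ± 0.16, adjusted p = 0.0101). Both held without the 3 (adjusted p = 0.00317 and adjusted p = 0.000653). Nr3c1 was higher at 400 than at 100 mg/kg of JGT02 (0.40 ± 0.11, adjusted p = 0.0105), by 0.23 ± 0.05 without the 3 (adjusted p = 0.0128), where GA JGT02 100 mouse 1 at 47.4 CPM is left out. The other pairs, higher Nr3c1 (0.31), Tsc22d3 (0.47) and Sgk1 (0.63) with JGT04 than with JGT02 at 100 mg/kg, were lost without GA JGT02 100 mouse 1. In the fit with a set term the 2 pairs of the JGT02 doses passed, and Fkbp5 with JGT04 against JGT02 did not (-0.51, adjusted p = 0.105). Between JGT04 and JGT03 at 100 mg/kg Fkbp5 differed by -0.47 (95% interval -0.80 to -0.14, adjusted p = 0.377). The 2 doses of JGT04 gave a Fkbp5 difference of -0.26 (interval -0.61 to 0.09) and a Zbtb16 difference of 0.02 (interval -0.48 to 0.53).

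In SO 5 pairs passed, where 4.76% of all pairs did (10 and 3.32% without the 3 libraries). Fkbp5 was again lower at 400 than at 100 mg/kg of JGT02 (-0.44 ± 0.11, adjusted p = 0.0121) and lower with JGT04 than with JGT02 at 100 mg/kg (-0.48 ± 0.12, adjusted p = 0.00738). Both held without the 3 libraries, with adjusted p = 0.0466 and adjusted p = 0.00102. Tsc22d3 was higher at 400 than at 100 mg/kg of JGT02 (0.56 ± 0.17, adjusted p = 0.031), and Tsc22d3 and Sgk1 were lower with JGT04 than with JGT02 at 400 mg/kg (-0.64 ± 0.19 and adjusted p = 0.0304 for Tsc22d3). These 3 pairs were lost without SO JGT02 400 mouse 1. JGT02 100 and JGT02 400 mice 1 to 3 lie in an earlier set than JGT04 in SO. Only Tsc22d3 for the JGT02 doses passed with a set term, and Fkbp5 did not for the JGT02 doses (-0.39, adjusted p = 0.0608) or for JGT04 against JGT02 (-0.36, adjusted p = 0.597). The 2 doses of JGT03 and of JGT04 gave no pair that passed in either muscle, with a Fkbp5 difference in SO of 0.10 (interval -0.13 to 0.33) for JGT03 and -0.01 (-0.25 to 0.24) for JGT04.

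Some other known targets of the receptor were raised by far more than any of the 8. In a list of 44 other genes known to be induced by glucocorticoids, 43 were tested, and over the 8 injected groups 11 rose and 9 fell in GA and 8 rose and 6 fell in SO. Over all genes 10.3% rose and 10.9% fell in GA, and 9.05% and 8.78% in SO. Lcn2, which encodes an iron-binding acute-phase protein, rose by 5.60 ± 0.28 in GA and 4.41 ± 0.30 in SO on the log2 scale. Pnmt, the enzyme that makes adrenaline, rose by 4.03 ± 0.36 in GA, and Per2, a clock gene, by 2.10 ± 0.18 in GA and 2.29 ± 0.13 in SO. Pdk4, a brake on glucose oxidation, fell by 2.13 ± 0.23 in SO. Fbxo32 and Trim63, the ubiquitin ligases of muscle atrophy, were chosen after their values were seen: they fell by 0.96 ± 0.13 and 0.54 ± 0.08 in GA and by 0.61 ± 0.15 and 0.47 ± 0.09 in SO. The median change of the list was -0.01 in GA and 0.00 in SO, beside 0.00 and 0.03 over all genes.

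Around the receptor, 13 genes of its chaperone complex gave 1 rise (Hspa4, 0.14 ± 0.04) and 3 falls in GA, of which the chaperone Hspa8 (-0.49 ± 0.07) was the largest, and 1 rise in SO (Stub1, 0.28 ± 0.08). Of 15 coregulator genes 3 rose in GA, led by the corepressor Nrip1 (0.84 ± 0.11), and 5 fell in SO, led by the Mediator subunit Med14 (-0.37 ± 0.06) and the coactivator Ncoa2 (-0.36 ± 0.08). Of 5 tested genes of ligand supply, H6pd, which makes the cofactor that Hsd11b1 uses, rose in GA (0.41 ± 0.06), and the efflux pump gene Abcb1b rose in both muscles (0.30 ± 0.10 each). Of 12 tested genes known to be repressed by glucocorticoids 3 collagen genes fell in GA (Col1a1, -1.72 ± 0.38), and in SO none fell and Ptgs2 rose (1.31 ± 0.43). Of 20 clock genes 14 rose and 5 fell in GA and 12 rose and 5 fell in SO, with Arntl at -2.60 ± 0.12 and -3.29 ± 0.11. The median of the clock list was 0.59 in GA and 0.56 in SO, beside 0.00 and 0.03 over all genes. Markers of other cells in the tissue over the same contrast were, in GA, 10 of 11 endothelial, 5 of 8 fibroblast and 7 of 8 tendon genes lower, and 1 of 8 tendon, 3 of 5 red cell and 1 of 10 fast-fibre genes higher. In SO 2 of 8 fibroblast, 2 of 8 tendon, 1 of 11 endothelial and 1 of 5 regenerating-fibre genes were lower, and 2 of 9 Schwann, 1 of 11 endothelial, 1 of 5 red cell and 1 of 10 fast-fibre genes higher. No slow-fibre or macrophage gene passed in either muscle, and no T cell gene passed the filter. Their part in the results for the 8 members was not tested. Beside all of these lists, 10.3% of all genes rose and 10.9% fell in GA, and 9.05% rose and 8.78% fell in SO.

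The genes whose level was most like each member over the 86 libraries were named by rank correlation among 8316 genes, as a description, since the libraries share groups, sets and the 3 that stand apart. Fkbp5 was most like Nr1d1, a clock repressor gene (Spearman 0.77), Rab7 (0.76) and Eya1 (0.74). Zbtb16 was most like Zhx2 (0.81), Nt5dc3 and Jmy (0.79 each). Hsd11b1 was most like Prkar2b (0.90), Slc1a5 and Pde3b (0.89 each), and Prkar2b and Pde3b are known for their high expression in fat. Dusp1 was most like the immediate early gene Nr4a1 (0.77), Otud1 (0.68) and Fos (0.60), another immediate early gene. Tsc22d3 was most like Dyrk1b (0.74), Arrdc3 (0.73) and Atl2 (0.72), and Sgk1 like Atl2 (0.71), Arrdc3 (0.66) and Klhl33 (0.62). Klf15 was most like Oxsr1 (0.75), Zfyve1 (0.73) and Prune (0.72), and Nr3c1 like Hook3 (0.78), Pcmtd1 and Slc30a9 (0.74 each). Without the 3 libraries these values lay between 0.58 and 0.90.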

How the data were processed

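RNA from GA and SO was sequenced as strand-specific 100 bp paired-end libraries on an MGI instrument, per the labels' protocols. The authors deposited 1 table of expected counts with a gene symbol per line. The submitters' processing notes name RSEM 1.3.3, STAR 2.7.3a, Trim Galore 0.6.5, FastQC 0.11.9 and GRCm38. The annotation and settings are not given in the sources used here. Of the values 92.0% were whole (tolerance 0), and the rest were rounded.

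Genes kept by filterByExpr (14484 in GA, 14811 in SO, 15327 in both) were scaled with TMM and tested by quasi-likelihood in edgeR 4.0.16 (R 4.3.3), in 1 fit per muscle over 43 libraries and 1 over all 86 for SO against GA. P values were adjusted by Benjamini-Hochberg over all genes of a contrast, with a threshold of 0.05, and SEs come from the same fits. CPM are counts over the TMM-scaled library size. Other settings tried were no filter, DESeq2 1.42.0, DESeq2 size factors, only the groups compared, a set term, a replicate block, leaving out each library and leaving out 3 libraries. The fits were tested on simulated data.

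The members, gene lists, the 3 libraries and the sets were chosen with earlier results of these data known. All members were named, and of each list up to 3 genes of smallest p per muscle for the mean of the 8 injected groups. For each member the 3 most correlated genes of at least 5 CPM in both muscles were named, leaving out predicted genes. Marker lists of fibre types, adipocytes, macrophages, T cells, endothelium, Schwann cells, fibroblasts, tendon and red cells were also counted.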

Additional observations from a re-analysis of the deposited data

Results flagged for a closer look

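In 144 groups of 4 or 5 mice (8 genes, 18 groups), 19 held a mouse whose CPM lay far from the others by Dixon's test, which chance gives in about 1 in 20 groups. Of these, 7 are libraries already said to stand apart: GA JGT02 100 mouse 1 for Nr3c1 (47.4, next 97.5), SO JGT02 100 mouse 5 for Nr3c1 (40.5), Tsc22d3 (40.6), Klf15 (3.11) and Zbtb16 (1.87), and SO JGT02 400 mouse 1 for Tsc22d3 (154) and Sgk1 (130).

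In DEX mice of GA, mouse 1 was high for Nr3c1 (110, next 99.3) and mouse 4 low for Klf15 (10.7, next 21.0). In non-treated SO, mouse 4 was high for Tsc22d3 (62.0) and mouse 3 for Hsd11b1 (5.61, next 4.91). In treated GA groups Tsc22d3 was high in JGT03 400 mouse 5 (156), Dusp1 in JGT03 100 mouse 3 (88.7, next 54.0) and Hsd11b1 in JGT02 100 mouse 4 (9.52, next 6.78). In treated SO groups Sgk1 was high in JGT03 400 mouse 4 (62.9, next 37.4). Low values in SO were Fkbp5 in JGT02 400 mouse 4 (29.8), Klf15 in JGT02 400 mouse 3 (23.0), Tsc22d3 in resveratrol mouse 5 (40.0, next 51.7) and Zbtb16 in JGT04 100 mouse 5 (11.1).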

How the results depend on the processing

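No result reversed. Counts of members or pairs that passed follow as the count reported, then the alternatives that moved it by over 1.5 times. For DEX against non-treated in GA (0) it was 2 without the 3 libraries and 1 with only the groups compared, and in SO (2) it was 1 with no filter, 5 without the 3 and 4 with only the groups compared. For the mean of 8 groups it was 1 with a set term and 6 without the 3 in GA (3), and 1 and 5 in SO (3). For each group against non-treated it was 7 with a set term, 29 without the 3 and 32 with only the groups compared in GA (13), and 6, 30 and 29 in SO (17). For treatments against DEX in GA (8) it was 5 with DESeq2 size factors, 4 with no filter, 1 with a set term, 14 without the 3 and 13 with only the groups compared. In SO (2) it was 1 with no filter, 17 without the 3 and 4 with only the groups compared. For doses and extracts it was 2 with a set term in GA (6), and 1 with a set term, 10 without the 3, 0 with only the groups compared and 8 with DESeq2 in SO (5). For any difference among injected groups it was 1 with a set term in GA (4), and 1 with a set term and 6 without the 3 in SO (3). For SO against GA (3) it was 1 with a set term, 6 without the 3 and 8 with only the groups compared, and for the difference of the DEX change (0) it was 2 without the 3 and 2 with only the groups compared. The cause was not tested. The common dispersion was lower without the 3. Fewer of all genes also passed with a set term, 15.6% in GA and 4.02% in SO for the mean of 8 groups, against 21.2% and 17.8% without it.

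Fits that each left out a single library gave, in the order above, 0 to 0 and 0 to 2 for DEX, 1 to 6 and 2 to 5 for the mean, 8 to 14 and 9 to 18 for groups, 4 to 8 and 1 to 4 for treatments, 4 to 7 and 2 to 9 for doses and extracts, 2 to 5 and 2 to 7 for any difference (GA then SO), 3 to 3 for SO against GA and 0 to 0 for the difference of the DEX change.

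No pairing by mouse number was detected: GA and SO libraries of 1 number and group had a median correlation of 0.0161, and 8 of 43 GA libraries correlated best with their own number. A low correlation between 2 different muscles cannot show that they came from different mice, so the question stays undecided. With the number as a replicate block, GA treatments against DEX gave 4 pairs, the mean of 8 groups gave 4 in each muscle, and no other count moved by over 1.5 times. Over the single-gene values of DEX and of the mean of 8 against non-treated, treatments against DEX, SO against GA and the difference of the DEX change, 2969 kept their call, 81 gained and 102 lost one (groups against non-treated, doses and extracts are not in these counts). Depth limits Hsd11b1, whose counts went down to 112 in SO JGT02 400 and SO JGT04 100 and to 117 in non-treated mice of GA.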
